A study of Mus musculus with 9 samples.

Results

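Border-associated macrophages (BAMs) were examined in the mouse-derived brain cells of a glioblastoma (GBM) xenograft study profiled by Drop-seq, a droplet method that counts transcripts per cell barcode with unique molecular identifiers (UMIs). Barcodes entered the analysis if they showed 200 or more genes and had no more than 30% of their UMIs from mitochondrial genes. A kept cell was called a BAM when it held UMIs of at least 2 of the 6 genes Mrc1, Cd163, F13a1, Pf4, Lyve1 and Cbr2 and no UMI of P2ry12, Tmem119, Cldn5 or Ly6c2. The rule found 81 BAMs among 15391 kept cells of 9 libraries. There were 24 in the normal brain, 55 in untreated tumors and 2 in a treated tumor.

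All libraries came from nude mice, a strain that lacks a thymus and therefore most T cells, and each library stood for 1 sample. Nu-NB was the brain of a nude mouse without a tumor. The other 8 were patient-derived orthotopic xenografts (PDOXs), in which GBM organoids of human tumors were grown in the mouse brain until endpoint and only the mouse-derived tumor microenvironment (TME) was analysed: P3, P8, P13, T16, T101, T192 and T233 were untreated, and P3TMZ carried the P3 tumor in a mouse given temozolomide (TMZ), an alkylating drug. T192 and T233 were grown from tumors of the same patient and are not independent in origin. The ages of the mice were not given in the sources used here. Mouse cells of Nu-NB and P8 were sorted by flow cytometry (FACS), and those of the other PDOXs were separated with magnetic beads (MACS).

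BAMs are the resident macrophages of the brain's edges: the perivascular spaces, the meninges and the choroid plexus. Microglia (Mg) are the macrophages of the parenchyma itself. Both depend on the receptor encoded by Csf1r, and BAMs are known for scavenger receptors and lectins with which they take up material from blood and cerebrospinal fluid, whereas Mg are known for P2ry12, Tmem119 and the transcription factor Sall1.

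Between 760 and 2916 cells were kept per library, and the files held between 1294068 and 8410580 UMIs each. BAMs were shallow cells, with a median of 620.5 UMIs in Nu-NB, 573.5 in T16 and 997 in P13. Their summed UMIs were 19793, 14547 and 33937, so that 1 UMI weighed 50.5, 68.7 and 29.5 CPM, the UMIs of a gene scaled to the same total for every sum of cells. No BAM barcode was shared between libraries. At most 5 kept barcodes were shared by any 2 libraries. Of the 81 BAMs, 2 ranked within the top 5% of their library by doublet score, and both were from Nu-NB.

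BAMs were found in 6 of the 9 samples. They made up 1.28% of kept cells in Nu-NB (24 of 1868, exact 95% binomial interval 0.825 to 1.91), 1.13% in T16 (24 cells, 0.725 to 1.68) and 0.789% in P13 (23 cells, 0.501 to 1.18). In T192 the share was 0.315% (6 cells, 0.116 to 0.684), in T233 0.205% (2 cells, 0.0249 to 0.740), and in P3TMZ 0.263% (2 cells, 0.0319 to 0.947). The intervals of Nu-NB, T16 and P13 overlapped, and that of T192 lay below the intervals of Nu-NB and T16. That separation depended on the exclusion genes and the gene minimum. Without the exclusion genes T192 was at 0.787% (0.441 to 1.30) and T233 at 0.924% (0.423 to 1.75), overlapping Nu-NB at 1.5% (0.998 to 2.16) and T16 at 1.65% (1.15 to 2.28), and with at least 500 genes T192 (0.176 to 1.26) overlapped both as well. No BAM was found among 2447 cells of P8, 1577 of T101 and 818 of P3, which allows shares of up to 0.123%, 0.190% and 0.367% by a limit of 3 cells, and of up to 0.151%, 0.234% and 0.450% by the exact interval drawn in the plot of shares. In the files of 3 samples the rule had fewer genes to find: T101 lists neither Cd163 nor Pf4, P3 does not list Cd163, and P3TMZ does not list Cbr2. These intervals cover counting error only, and with a single normal brain no test between Nu-NB and the PDOXs was made.

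**Figure D1:**
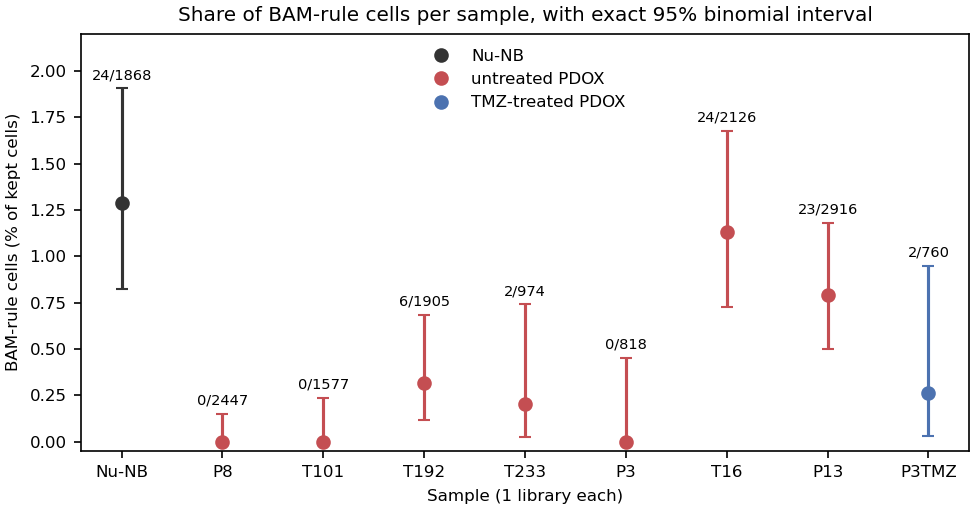
Share of kept cells that met the BAM rule (y axis, percent) in each of the 9 samples (x axis), with exact 95% binomial intervals as bars. Nu-NB, T16 and P13 sit between 0.789% and 1.28%, the other samples at 0.315% or less.

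The share depended on what it was set against. Among BAMs, Mg and monocyte-type cells together, BAMs were 3.23% in Nu-NB, 4.93% in T16, 2.55% in P13, 0.659% in T192, 0.437% in T233 and 0.615% in P3TMZ. T16 was then the highest sample. After every cell was thinned to 500 UMIs, leaving out shallower cells, the shares were 1.34%, 0.954%, 0.801%, 0.164%, 0.161% and 0% in the same order. Nu-NB, T16 and P13 stayed above the other samples on all 3 scales.

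The 6 marker genes chose the cells, and their levels are given here as a description. Mrc1, the mannose receptor CD206, was detected in 23 of 24 BAMs of Nu-NB, 23 of 24 of T16 and 19 of 23 of P13, at 7679, 5293 and 3713 CPM. F13a1, the A chain of coagulation factor XIII, was at 3789, 1169 and 913 CPM, and Cd163, the hemoglobin-haptoglobin scavenger receptor, at 1718, 481 and 796 CPM. Both were highest in Nu-NB. Pf4, the platelet chemokine Cxcl4, ran the other way, with 1010.5, 1856 and 2298 CPM in Nu-NB, T16 and P13. Lyve1, a hyaluronan receptor, was found in 8, 6 and 7 BAMs of these samples, and Cbr2, a carbonyl reductase, in 8 of each.

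Pooled over samples, cells on either side of the rule's limits differed in genes that the rule did not read. A list of 30 further BAM genes, of which 24 were in every file, took 22637 CPM in the 28 cells with exactly 2 markers and 28908 CPM in the 53 cells with 3 or more. In the 80 cells with exactly 1 marker it took 7497 CPM, and 17 of those cells held no UMI of any of 12 pan-myeloid genes. In 75 cells with at least 2 markers but also an exclusion gene it took 7844 CPM. P2ry12 was the exclusion gene most often seen in those cells, in 59 of the 75. Single samples did not always follow the pool. Cells with exactly 1 marker were at 14308 CPM in Nu-NB (17 cells), 16939 in T101 (3) and 16963 in P3 (2). In the other samples they were at 4061 to 12507 CPM. By comparison, the 7 cells of P13 with exactly 2 markers were at 12937 CPM. Cells with an exclusion gene were at 22802 CPM in Nu-NB (4 cells) and at 4808 to 8180 CPM elsewhere.

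Markers outside the rule are given beside the label as a description. They are not an independent check, since BAMs were chosen for BAM markers and Mg for holding none of them. The BAM identity list was also chosen with earlier results of these data known. Of the 81 BAMs, 79 held UMIs of at least 2 of the pan-myeloid genes, and the other 2 held 1. Summed over the 24 BAM identity genes, BAMs were at 35214 CPM in Nu-NB, 31415 in T16 and 22453 in P13, against 4256, 3251 and 5112 CPM in Mg of the same samples. Mg were taken as cells with UMIs of at least 2 Mg marker genes, among them P2ry12, Tmem119, Cx3cr1, Siglech and Gpr34, and none of the 6 BAM markers, Cldn5 or Ly6c2, which gave 717, 463 and 854 cells with medians of 511, 1184 and 1678 UMIs. Cx3cr1, the fractalkine receptor, was not excluded in BAMs and was found in 12 BAMs of Nu-NB, 6 of T16 and 4 of P13.

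Markers of other cell types varied in BAMs, from a single UMI of lymphatic genes to 5422 CPM of astrocyte genes in P13. The rule itself removed cells with a UMI of Cldn5 or Ly6c2, which limits what the endothelial and monocyte sums can show. Of the lymphatic markers in every file, Prox1, Flt4 and Pdpn, a single UMI was seen, in P13, although Lyve1 is also a lymphatic gene. The 5 monocyte markers in every file summed to 50.5, 68.7 and 147 CPM in Nu-NB, T16 and P13, with no UMI of Ccr2 in Nu-NB or T16 and none of S100a4 in any of the 3 samples. Endothelial markers summed to 202, 206 and 589 CPM, mural markers to 253, 275 and 1090 CPM, and fibroblast markers to 556, 344 and 295 CPM. Astrocyte markers were at 859 and 1100 CPM in Nu-NB and T16 but at 5422 CPM in P13, where 10 of 23 BAMs held at least 2 of the 8 markers, and Gfap was at 0 in the BAMs of all 3 samples. Choroid plexus and ependymal markers had 2 UMIs in Nu-NB and were at 1237 and 1179 CPM in T16 and P13, and Folr1 and Kcnj13 were at 0 in all 3. Mg carried more of this last group in the PDOXs, with 158, 36893 and 18972 CPM.

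BAMs were then compared with Mg of the same library. Nu-NB, T16 and P13, the samples with at least 10 BAMs, entered the test. UMIs were summed per sample and class and tested with edgeR's quasi-likelihood test with the sample as a block, at a Benjamini-Hochberg adjusted p of at most 0.01 and an absolute log2 fold change of at least 1. Of 4565 genes tested, 97 passed (2.12%), with 57 higher in BAMs (1.25%) and 40 lower (0.876%). The 14 genes of the cell rules were left out of these calls. Both classes were chosen from UMIs of these same cells, and genes that go with the rule's markers are not independent of that choice. Over all genes tested the median log2 fold change was -0.43, so that a gene with no class difference sat slightly below 0.

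Genes of BAM identity outside the rule were the group with the most calls. Of 30 in the list, 28 were tested, 22 were higher in BAMs and none lower, against 1.25% and 0.876% of all genes tested. All 28 had a positive log2 fold change, with a median of 3.02, and in 24 of them all 3 BAM sums lay above all 3 Mg sums, as for 7.32% of all genes tested (9.35% lay below). The list was chosen for BAMs with earlier results of these data known. Genes with low counts were filtered out before the test. Members that were absent or near absent in Mg, such as Cd209f, Cd209a, Mgl2 and Fcna, met that filter only through the BAM sums. For such members the positive sign and the lack of overlap were partly set by the filter and are given as a description.

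Ms4a7, a membrane-spanning protein of macrophages, was at 3638 CPM in Nu-NB, 1719 in T16 and 1621 in P13 among BAMs, against 14.8, 28.1 and 117 CPM in Mg. The lowest BAM sum lay far above the highest Mg sum. The log2 fold change was 5.23 (SE 0.44, adjusted p = 3.25e-29, n = 3 samples per class). The SE of edgeR fits, here and below, was computed back from the test statistic and is not the spread between samples. In P13, 40% of the Ms4a7 UMIs came from 1 BAM.

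Dab2, an adaptor of clathrin-mediated endocytosis, was at 2425, 3231 and 1621 CPM in BAMs and at 27.4, 71.9 and 111 CPM in Mg (log2 fold change 4.75, SE 0.42, adjusted p = 5.98e-27). Stab1, the scavenger receptor stabilin-1, was at 1010.5, 687 and 442 CPM against 42.2, 16.7 and 56.6 CPM (3.79, SE 0.50, adjusted p = 9.32e-12). Hpgd, which inactivates prostaglandins, was at 606, 344 and 206 CPM against 27.4, 10.5 and 8.54 CPM (4.27, SE 0.62, adjusted p = 1.55e-09). In each of the 3 genes the groups did not overlap. Together with Ms4a7 and Clec10a they were the 5 genes that passed, all higher, in every alternative analysis that gave a test of this comparison.

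The lectin receptors of the C-type family separated the classes most sharply. Clec10a, a receptor for galactose-type sugars on chromosome 11 (70156197 to 70170834, GRCm38), had 8, 15 and 26 UMIs in BAMs of Nu-NB, T16 and P13, or 404, 1031 and 766 CPM. Mg held 3 UMIs of it among 717, 463 and 854 cells, all in P13. The ratio of the summed levels was 1059 (95% counting interval 342 to 5309). This interval, like that of Ccl24 below, covers the counting of pooled UMIs and not differences between cells or samples.

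Its neighbour Mgl2 had 21 UMIs in BAMs of the 3 samples and 1 in Mg. Cd209f, Cd209b and Cd209a, relatives of the dendritic cell receptor DC-SIGN that lie together on chromosome 8, had 23, 20 and 22 UMIs in BAMs and none in Mg. Against a floor of 3 UMIs over the Mg of all 3 samples, they were at least 497-fold, 432-fold and 475-fold higher. The members of this family are close in sequence, and reads shared between them could have been split by the counting. In T16, the Cd209a value was a single UMI.

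Soluble and cell-surface products of uptake and defence moved the same way. Fcna, the circulating lectin ficolin A, had 5, 8 and 5 UMIs in BAMs and 1 in Mg, and Pla2g2d, a secreted phospholipase, had 8, 7 and 3 UMIs and 1 in Mg. Wfdc17, a small secreted protein of the WAP family, was at 808, 3025 and 1915 CPM against 0, 35.1 and 70.8 CPM (log2 fold change 5.56, SE 0.45, adjusted p = 2.56e-31). Lyz2, lysozyme, was at 5103, 5637 and 3624 CPM against 116, 566 and 1001 CPM (3.05, SE 0.40, adjusted p = 4.33e-12). Neither gene overlapped between the classes. Mmp9, a gelatinase that remodels matrix, had 3, 1 and 6 UMIs in BAMs and none in Mg, at least 216-fold higher, but was too sparse to enter the test.

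Of 15 scavenger and endocytic receptors tested, 8 were higher in BAMs and none lower, against 1.25% and 0.876% of all genes tested. The median log2 fold change was 3.79, with 11 positive and 4 negative, and the filter on low counts bore on these signs as it did for BAM identity genes. All 8 were also among the 22 BAM identity genes counted above, so they are not a separate result. Ms4a7, Mgl2, Wfdc17 and Lyz2 above, Folr2 and Fcgr2b here, and Cp, Selenop, Maf, Gas6 and Igfbp4 below were in that count too. Cd36, a receptor for oxidized lipids, was at 758, 344 and 265 CPM against 2.11, 3.51 and 27 CPM (4.78, SE 0.65, adjusted p = 2.89e-11), and the others were Stab1, Clec10a, Clec4n, Fcna, Cd209f, Cd209a and Dab2. Folr2, the folate receptor of tissue macrophages, was higher too, at 303, 206 and 236 CPM against 0, 2.63 and 11.4 CPM. Of 7 Fc and complement receptors, Fcgr2b, the inhibitory IgG receptor, was higher, with 1516, 687 and 501 CPM against 139, 47.4 and 116 CPM, as was Fcgrt, which recycles IgG. Itgam, the integrin chain CD11b, was lower, with 404, 0 and 177 CPM against 1531, 909.6 and 706 CPM (-2.74, SE 0.48, adjusted p = 1.36e-06).

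**Figure D2:**
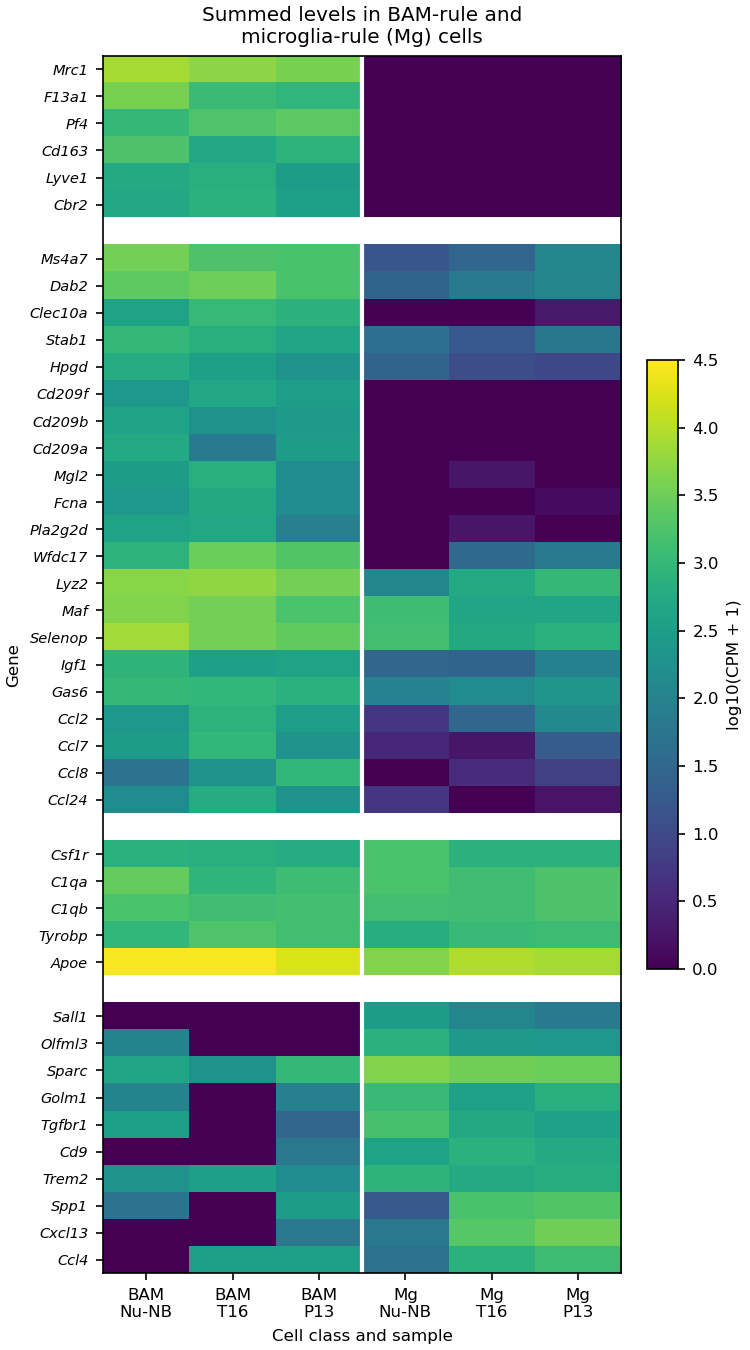
Heat map of summed levels (color, log10 of CPM + 1) of named genes (rows) in BAMs and Mg of Nu-NB, T16 and P13 (columns), in blocks of rule markers, genes higher in BAMs, shared macrophage genes and genes lower in BAMs. The rule markers are at 0 in Mg by construction, and Ms4a7 runs from 1621 to 3638 CPM in BAMs and from 14.8 to 117 CPM in Mg.

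Iron and heme handling was partly higher. Of 10 genes tested, Cp (ceruloplasmin, a ferroxidase), Trf (transferrin) and Blvrb (a biliverdin reductase) were higher and none lower. The shares over all genes tested were 1.25% higher and 0.876% lower. Cp was at 707, 1031 and 648 CPM in BAMs, against 25.3 CPM in Mg of Nu-NB, 64 CPM in those of T16 and 284 UMIs over the 854 Mg of P13 (log2 fold change 3.29, SE 0.46, adjusted p = 1.87e-10). Trf was at 1061, 962 and 413 CPM against 196, 173 and 104 CPM, with a log2 fold change of 1.91. Selenop, a selenium carrier, was the most abundant of the higher genes in Nu-NB, at 7427, 3575 and 2475 CPM against 1377, 543 and 738 CPM (1.90, SE 0.36, adjusted p = 1.48e-05).

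Of 9 growth factor and matrix genes, 3 were higher, against 1.25% of all genes tested. Igf1, an insulin-like growth factor, was at 859, 344 and 383 CPM in BAMs against 29.5, 27.2 and 93.9 CPM in Mg (log2 fold change 3.0, SE 0.53, adjusted p = 1.36e-06). Gas6, the ligand of the Axl and Mertk receptors, was at 1010.5, 962 and 737 CPM against 97, 146 and 218 CPM (2.18, SE 0.42, adjusted p = 1.75e-05). The third was Igfbp4, which binds insulin-like growth factors. For Igf1 in Nu-NB, 41.2% of the BAM UMIs came from 1 cell.

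Of 16 macrophage transcription factors tested, 2 were higher and 1 lower, against 1.25% and 0.876% of all genes tested. Maf, a factor of tissue-resident macrophages, was at 4497, 3643 and 1709 CPM in BAMs against 1286, 437 and 459 CPM in Mg (log2 fold change 1.85, SE 0.36, adjusted p = 3.19e-05). Klf4 was at 556, 275 and 354 CPM against 82.2, 50 and 77.2 CPM (2.09, SE 0.53, adjusted p = 0.00379). Sall1, the factor that maintains Mg identity, had no UMI in the BAMs and was at 299, 118 and 70.1 CPM in Mg, at least 2.43-fold lower in BAMs against the floor of 3 UMIs.

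CC chemokines, the attractants of monocytes and other leukocytes, were split. Of 8 tested, Ccl2, Ccl7, Ccl8 and Ccl24 were higher in BAMs and Ccl4 was lower, against 1.25% and 0.876% of all genes tested. Ccl24, which attracts eosinophils, had 3, 9 and 7 UMIs in BAMs of Nu-NB, T16 and P13 and 4 in Mg, a ratio of 308 (counting interval 102 to 1244). Ccl8 had 1, 3 and 32 UMIs, so that its level of 50.5, 206 and 943 CPM rested mainly on P13. Mg held 0, 2.63 and 6.05 CPM of it.

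Ccl7 was at 303, 962 and 206 CPM against 2.11, 0.877 and 18.9 CPM (log2 fold change 5.27, SE 0.63, adjusted p = 1.84e-14). Ccl2 was at 253, 825 and 324 CPM against 4.22, 29.8 and 137 CPM (2.89, SE 0.57, adjusted p = 3.59e-05). For both genes all BAM sums exceeded all Mg sums, but few cells carried them: in Nu-NB 2 BAMs held all the UMIs of either gene. Ccl4 was at 0, 344 and 354 CPM in BAMs against 46.4, 749.9 and 1234 CPM in Mg (-2.0, SE 0.52, adjusted p = 0.00656). Within each sample BAMs were below Mg, although the ranges over samples overlapped. Cxcl13, a B cell attractant, had only 2 UMIs in BAMs, both in P13, against 63.3, 2182 and 3303 CPM in Mg (-6.59, SE 0.73, adjusted p = 1.20e-16).

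Genes that define Mg and were not part of the rule were lower. Of 17 tested, 8 were lower (Sall1, Olfml3, Selplg, Sparc, Csf3r, Golm1, Nav3 and Tgfbr1), 8 did not pass and 1 was higher. The shares over all genes tested were 0.876% lower and 1.25% higher. The median log2 fold change was -3.06, or -1.75 with the 3 genes at 0 in BAMs set at their bound. Sparc, a matrix protein, was at 455, 206 and 1002 CPM in BAMs against 4397, 3376 and 2991 CPM in Mg (-3.06, SE 0.42, adjusted p = 8.78e-11). Olfml3, an olfactomedin-like secreted protein, had 2 UMIs in BAMs, both in Nu-NB, against 776, 263 and 248 CPM in Mg. The gene that went the other way was Fcrls, an Fc receptor-like scavenger, at 455, 756 and 471 CPM in BAMs against 48.5, 115 and 161 CPM (2.0, SE 0.47, adjusted p = 0.00147).

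The other genes with the largest decreases among those at 100 CPM or more were Il7r and Csf3r, both without a UMI in BAMs and at least 2.78-fold and 2.30-fold lower, and Enpp2, Adamts1, Ttr, Cd9 and Skil. Cd9, a tetraspanin, was at 0, 0 and 58.9 CPM against 409, 757 and 567 CPM (-4.69, SE 0.73, adjusted p = 2.27e-08). Ttr and Enpp2 are also abundant in choroid plexus. Ttr had 2 UMIs in BAMs of Nu-NB, was at 1237 and 825 CPM in those of T16 and P13, and was at 146, 36146 and 18391 CPM in Mg, where 50% of its UMIs came from 6 Mg of T16 and from 9 of P13. Ttr is itself a member of the choroid marker list and made up most of the sums given above. Those sums are therefore not a separate sign. The part of choroid transcripts in the differences of Ttr and Enpp2 was not tested.

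Genes of activated and disease-associated microglia were mostly lower or did not pass. Of 13 tested, Spp1, Trem2, Ctsd and Cd9 were lower and Igf1 was higher, with a median log2 fold change of -1.21. Beside these stand 0.876% lower and 1.25% higher among all genes tested. Spp1, osteopontin, was at 50.5, 0 and 295 CPM in BAMs against 16.9, 1619 and 1900.2 CPM in Mg (-3.47, SE 0.57, adjusted p = 2.11e-07). In Nu-NB a single UMI put BAMs above Mg, whereas in both PDOXs BAMs were below. Trem2, a lipid-sensing receptor, was at 202, 344 and 147 CPM against 841, 572 and 647 CPM (-2.05, SE 0.48, adjusted p = 0.00129).

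Genes common to both macrophage types differed less. Of 12 pan-myeloid genes 9 did not pass and Ctss, Laptm5 and Itgam were lower, against 0.876% of all genes tested. Their median log2 fold change was -0.43, the same as over all genes. C1qa, a chain of complement C1q, was at 2728, 894 and 1267 CPM in BAMs and 1685, 1341 and 1731 CPM in Mg (-0.46, SE 0.37, adjusted p = 0.723), and Tyrobp, an adaptor of activating receptors, at 959.9, 1856 and 1355 CPM and 641, 1064 and 1194 CPM (0.11, SE 0.37, adjusted p = 0.953). Apoe, apolipoprotein E, had the highest BAM level of the genes named here, at 28849, 28322 and 17503 CPM in BAMs and 4462, 9321 and 7887 CPM in Mg. All BAM sums were above all Mg sums, but the log2 fold change of 1.41 (SE 0.39) had an adjusted p of 0.0132 and did not pass.

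In other groups calls were few, beside 1.25% higher and 0.876% lower among all genes tested. Of 11 interferon-response genes Ifi202b and Ifi207 were higher, of 7 complement genes Cfp (properdin), of 13 immediate early genes Fosb, and of 8 inflammatory genes Ccl2, with none lower in these lists. Of 8 growth receptors Tgfbr1 was lower. None of 5 MHC class I genes, 3 MHC class II genes and 5 cell-cycle genes passed in either direction. Cd74, the MHC class II invariant chain, was at 808, 344 and 737 CPM in BAMs against 139, 132 and 271 CPM in Mg (1.44, SE 0.44, adjusted p = 0.0380).

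**Figure D3:**
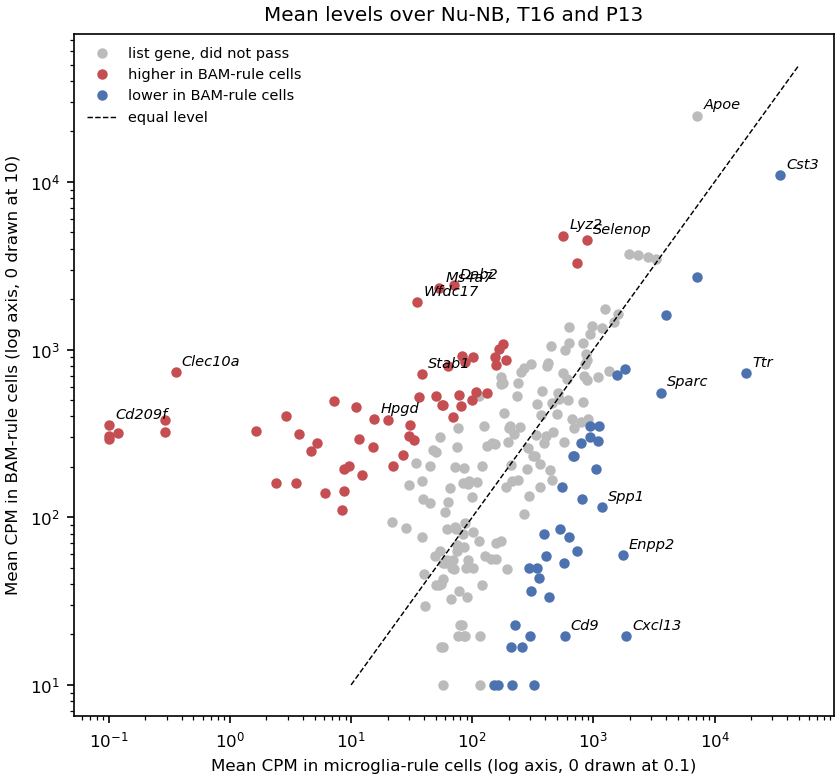
Mean level over Nu-NB, T16 and P13 in Mg (x axis, CPM, log axis, 0 drawn at 0.1) against BAMs (y axis, CPM, log axis, 0 drawn at 10), 1 point per tested gene of the gene lists and named genes, colored by whether it passed higher or lower in BAMs. The dashed line marks equal levels; Clec10a and Cd209f sit at the far left and Cxcl13 and Ttr at the lower right.

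The count of calls rested on the within-library pairing. Without the replicate block, that is, with the sample left out of the model, 15 genes passed, all higher in BAMs and all among the 97. DESeq2 called 57 genes, 50 higher and 7 lower, so that most of the lower calls were not shared between the tools. Without Nu-NB 38 genes passed and without T16 59.

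Proximal promoters are shown for Mrc1, the most frequent rule marker, for Fcna and Wfdc17, which were among the genes with the largest increases, and for Stab1, which passed in every alternative. The sequences are RefSeq's for GRCm38.p6, from 250 bases before to 50 bases after the start, written 5′ to 3′ along the gene's strand. Capitals mark GAGGAAG, the letters of an ETS-type site as bound by PU.1, the general factor of myeloid cells, and TGCTGAC, the letters of a MAF half-site, each on either strand, so that CTTCCTC and GTCAGCA are the same letters on the other strand. Positions count from the start, with the base before it as -1.
Mrc1 (chr2:14229164-14229463, plus strand): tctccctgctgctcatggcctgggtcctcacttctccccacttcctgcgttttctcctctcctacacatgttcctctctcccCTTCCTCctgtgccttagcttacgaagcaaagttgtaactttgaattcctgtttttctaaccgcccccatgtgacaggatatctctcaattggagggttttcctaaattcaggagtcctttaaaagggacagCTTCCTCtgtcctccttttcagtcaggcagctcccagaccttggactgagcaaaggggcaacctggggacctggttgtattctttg
Fcna (chr2:25627925-25628224, minus strand): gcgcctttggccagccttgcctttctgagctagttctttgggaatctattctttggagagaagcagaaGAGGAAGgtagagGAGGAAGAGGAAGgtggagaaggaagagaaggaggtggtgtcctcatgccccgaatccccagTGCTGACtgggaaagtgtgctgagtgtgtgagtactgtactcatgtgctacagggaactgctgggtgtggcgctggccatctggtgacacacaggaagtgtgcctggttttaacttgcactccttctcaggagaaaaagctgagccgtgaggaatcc
Wfdc17 (chr11:83703806-83704105, plus strand): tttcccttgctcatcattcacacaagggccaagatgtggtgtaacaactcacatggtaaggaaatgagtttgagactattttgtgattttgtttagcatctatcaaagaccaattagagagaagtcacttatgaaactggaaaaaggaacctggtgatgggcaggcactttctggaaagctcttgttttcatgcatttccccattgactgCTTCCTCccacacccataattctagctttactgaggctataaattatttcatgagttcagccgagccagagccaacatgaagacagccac
Stab1 (chr14:31168592-31168891, minus strand): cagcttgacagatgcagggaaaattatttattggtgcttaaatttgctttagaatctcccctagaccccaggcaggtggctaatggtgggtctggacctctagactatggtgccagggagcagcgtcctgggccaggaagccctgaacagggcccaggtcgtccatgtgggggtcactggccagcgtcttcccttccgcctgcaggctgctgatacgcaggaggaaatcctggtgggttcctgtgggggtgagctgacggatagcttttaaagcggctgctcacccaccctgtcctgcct

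Mrc1 held the ETS-type letters at -168 and -36, Wfdc17 at -40, and Fcna at -182, -169 and -163, the last pair sharing 1 base. Fcna also held the MAF half-site letters, at -107. Stab1 held neither. Of the 57 genes higher in BAMs, 45 matched a RefSeq promoter by symbol, with 60 starts, and 10 of these starts (16.7%) held the ETS-type letters, against 14.9% of promoters of genes tested and 13.6% of all 32851 promoters. Among starts of genes lower in BAMs the share was 39.5% (15 of 38), and among the rule's markers 5 of 6 starts. The MAF half-site letters were in 5% of the starts of genes higher in BAMs, 5.26% of those of genes lower, and 4.67% of all promoters. Clec10a was not matched. These are counts of letters in a window, and they say nothing of binding.

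BAMs of the tumors were compared with BAMs of the normal brain, the question being whether the TME changed them. T16 and P13 were set against Nu-NB with edgeR, with 1 residual degree of freedom. Of 417 genes that could be tested, none passed (0%), and 49 had an unadjusted p under 0.05. DESeq2 also called none, with 18 under 0.05. In Mg of the same samples 76 of 10990 genes passed (0.692%), 36 of them higher in the PDOXs (0.328%), but none passed in Mg with T192 added at 5 cells per sum or with sparse samples pooled as 1 more. In all, 30% of the tested genes were above Nu-NB in both PDOXs and 44.1% below it. Nu-NB was sorted by FACS and its file uses older gene symbols, whereas T16 and P13 were sorted by MACS and use newer ones, so that sorting, symbol release and tumor cannot be told apart.

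The 10 genes with the smallest p at 100 CPM or more are given by value, none of them past the threshold. Among them, Rps29 and Ftl1 met the filter on low counts only through BAMs of Nu-NB. The others were low in BAMs of Nu-NB and met it only through T16 or P13. Their signs were therefore largely set by the filter and are given as a description. Ifi27l2a, an interferon-induced gene, had 2 UMIs in Nu-NB and was at 825 CPM in T16 and 1562 in P13 (log2 fold change 3.80, SE 1.01, adjusted p = 0.0229). In Mg of the same samples it was at 35.9, 223 and 998 CPM. Both classes were lowest in Nu-NB and highest in P13, and the adjusted p in BAMs ran from 0.0176 to 0.974 over the alternatives. Ifitm3, another interferon-induced gene, was at 152, 825 and 1238 CPM in BAMs and at 16.9, 234 and 512 CPM in Mg (in BAMs 3.02, SE 0.97, adjusted p = 0.0905).

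Ccl12, a mouse CC chemokine that attracts monocytes, had 2 UMIs in BAMs of Nu-NB and was at 1237 and 1119.7 CPM in those of T16 and P13 (log2 fold change 3.72, SE 1.03, adjusted p = 0.0271), and at 33.7, 223 and 652 CPM in Mg. Of the T16 value, 61.1% came from 1 cell. The 6 CC chemokines that could be tested all had a positive log2 fold change, with a median of 2.65 against 0.17 over all genes. In CPM, 5 of the 6 were above Nu-NB in both PDOXs, against 30% of all genes tested. The 6 were low in BAMs of Nu-NB and met the filter on low counts only through T16 or P13. Their shared sign was therefore largely set by the filter and is given as a description. In Mg of the same samples, 8 of 8 CC chemokines tested were positive, with a median of 3.96. Ccl3 was at 50.5, 687 and 678 CPM in BAMs. None of the 6 passed the test.

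Of the other genes with the smallest p, Mt1 (metallothionein, a metal-binding protein) was at 253, 894 and 2151 CPM and the ribosomal gene Rplp1 at 253, 1306 and 2151 CPM. Ptprz1 and Slc1a2, which astrocytes express, were at 0, 1099.9 and 559.9 CPM and at 202, 275 and 1768 CPM. In P13 63.2% of the Ptprz1 UMIs and 63.3% of the Slc1a2 UMIs lay in 1 cell. Slc1a2 is itself a member of the astrocyte marker list. The sum of that list, 859, 1100 and 5422 CPM, is therefore not a separate sign for it. The part of astrocyte transcripts was not tested. Ttr was at 1237 and 825 CPM in T16 and P13, and made up most or all of the choroid marker sums given above.

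A ribosomal gene and a ferritin gene were lowest in the PDOXs by value. Rps29 was at 1112 CPM in Nu-NB BAMs and had no UMI in T16 or P13, and Ftl1, the ferritin light chain, was at 1566, 68.7 and 236 CPM. Mg of the same samples were at 390.2, 21.1 and 25.3 CPM for Rps29 and at 359, 90.3 and 68.3 CPM for Ftl1. In Mg of P8, the other library sorted by FACS and counted with the older spellings of gene symbols, Rps29 was at 1006 CPM, and in Mg of the other PDOXs between 14.9 and 38.4 CPM. The part of sorting and of symbol release in these values was not tested.

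Of 24 BAM identity genes tested between Nu-NB and the tumors none passed, 13 had a positive and 11 a negative log2 fold change, and the median was 0.15. In CPM 5 were above Nu-NB in both PDOXs and 11 below it in both, against 30% and 44.1% of all genes tested. Among the rule's own markers, given as a description, the fitted log2 difference was -1.62 for F13a1, -1.09 for Cd163, -0.52 for Mrc1 and 1.32 for Pf4. Apoe, at 28849 CPM in Nu-NB, 28322 in T16 and 17503 in P13, had a log2 fold change of -0.08 (SE 0.54, adjusted p = 0.954). Lyz2, at 5103, 5637 and 3624 CPM, had one of 0.10 (SE 0.48, adjusted p = 0.932).

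**Figure D4:**
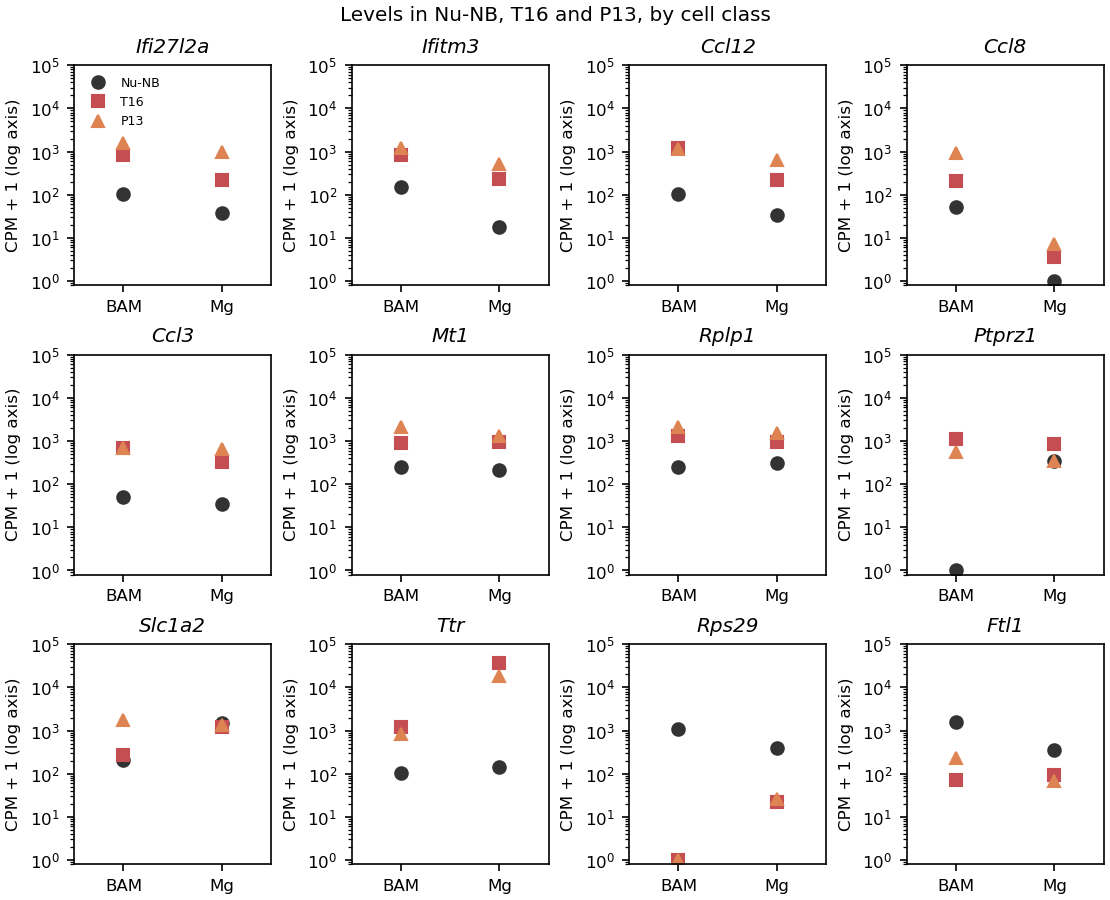
Levels of 12 genes (y axis, CPM + 1 of the summed cells, log axis) in BAMs and Mg, with 1 point for each of Nu-NB, T16 and P13. Ifi27l2a in BAMs was at 825 CPM in T16 and 1562 in P13, both above Nu-NB, and none of the 12 genes passed the test in BAMs.

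Whether the tumor difference was unlike in BAMs and Mg was tested as an interaction. None of 8024 genes passed (0%), with 120 at an unadjusted p under 0.05, and DESeq2 called none, with 56 under 0.05. The smallest p belonged to Ifi202b, a member of the interferon-inducible p200 family, whose level was 1566 CPM in Nu-NB, 894 in T16 and 796 in P13 among BAMs and 16.9, 146 and 378 CPM in Mg. BAMs thus exceeded Mg in every sample, with the gap narrowest in P13. The interaction was -4.60 on the log2 scale (SE 0.97, adjusted p = 0.0183).

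Cybb, the catalytic chain of the phagocyte NADPH oxidase, was at 1718, 619 and 177 CPM in BAMs and 25.3, 65.8 and 172 CPM in Mg (interaction -4.34, SE 1.03, adjusted p = 0.103). Lilrb4a, an inhibitory receptor, was at 657, 137 and 825 CPM and 2.11, 55.3 and 178 CPM, and Msr1, a scavenger receptor, at 505, 68.7 and 177 CPM and 2.11, 16.7 and 123 CPM. In each of these genes the Mg value was highest in P13. Ifi202b and Cybb passed with another scaling of library size, and up to 5 genes passed (with Lilrb4a, Msr1 and Lyz2) when the few BAMs of other samples were added.

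Antigen presentation was looked at cell by cell. With cells thinned to 500 UMIs, at least 2 of H2-Aa, H2-Ab1, H2-Eb1 and Cd74 were found in 1 of 14 BAMs of Nu-NB (7.14%), 1 of 15 of T16 (6.67%) and 2 of 23 of P13 (8.70%). In Mg the shares were 0.806%, 0.798% and 2.96%, and in endothelial cells, which should lack these genes, 0% (of 15 cells), 0.824% and 0.385%. At this depth BAMs were higher than Mg in 3 of 3 samples, by 5.98 percentage points on average (SD 0.314, n = 3). The exact sign-flip permutation test gave p = 0.25, the smallest p that 3 samples allow. The BAM shares rest on 4 cells. In the other libraries, which held too few BAMs for the test, Mg shares were higher. They ran from 3.14% in P3TMZ to 94.7% in T101, with 53.5% in P8 and 37.5% in T233. Over all samples the share was 11.7% in BAMs (7 of 60 cells) and 17.2% in Mg (607 of 3533). In T16 the order turned in the other settings: BAMs were at 4.17% and Mg at 6.70% without thinning, at 0% and 0.656% at 300 UMIs, at 6.67% and 9.31% with at least 1 gene, and at 0% and 0.798% with at least 3 BAM markers. The mean differences were then 1.67 to 3.56 points, with SDs of 2.46 to 6.32 that exceeded them and an exact p of 0.5. Without thinning, 3 of 24, 2 of 24 and 7 of 23 BAMs held at least 1 of the 4 genes.

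Cell-cycle genes were compared in the same way. At least 2 of them were seen in 0 of 14 BAMs of Nu-NB, 1 of 15 of T16 (6.67%) and 4 of 23 of P13 (17.4%), and in 1.61%, 5.85% and 13.8% of Mg. The difference of 0.921 percentage points (SD 2.59, exact sign-flip p = 0.75, smallest possible 0.25) was smaller than its spread and turned negative without thinning. Within the BAMs, cells with at least 2 cell-cycle genes before thinning were 0 in Nu-NB, 2 in T16 and 7 in P13.

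Lyve1 and MHC class II are often used to divide BAMs. Over all 81 BAMs, 23 held a UMI of Lyve1 and 19 held a UMI of at least 1 of the 4 MHC class II genes, and 3 held both. Among the 58 without Lyve1, 16 had MHC class II. BAMs with MHC class II were deeper, with a median of 1033 UMIs against 689.5 for those without, and at this depth a missing UMI does not show a missing transcript.

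The 10 BAMs of the remaining samples are given as cells. The 6 of T192 had 385 to 5733 UMIs, 2 to 5 markers and UMIs of 8 to 18 BAM identity genes, and all 6 held Mrc1. The 2 of T233 were unlike each other: the first had 2925 UMIs with Mrc1, Cbr2 and 15 identity genes, the second 364 UMIs with Pf4, Lyve1 and Cbr2 but 1 identity gene. The BAM identity list was at 21914 CPM in these 8 cells together. Spp1, near absent in BAMs of Nu-NB and T16, had 36 UMIs in 1 cell of T192 and 24 in 1 cell of T233.

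The effect of TMZ could not be compared, since P3 held no BAM and P3TMZ held 2. The first P3TMZ cell had Mrc1 and F13a1, the second Cd163 and Pf4. Their 2344 UMIs included 92 of Apoe (39249 CPM, exact 95% Poisson interval 31640 to 48136), 29 of Lyz2, 19 of C1qa, 12 of Cd74 (5119 CPM, 2645 to 8943) and 10 of Ms4a7. Both cells held MHC class II genes, and their BAM identity sum was 30290 CPM. These intervals cover counting error in 2 cells and not differences between mice.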

How the data were processed

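Drop-seq libraries of mouse-derived brain cells from 9 samples were analysed (Nu-NB, 7 untreated PDOXs and P3TMZ). The deposited values are raw UMI counts per gene and cell barcode, without normalization, which the authors made with bcl2fastq 2.0 and STAR against human and mouse genomes (GRCm38/mm10, per the labels' processing notes). Cell types were not taken from the authors, and no column was left unused. Nu-NB and P8 use older gene symbols, and 593 pairs of spellings were joined, leaving 15791 genes shared by Nu-NB, T16 and P13.

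BAMs and Mg were chosen by the marker rules given above from cells with at least 200 genes and at most 30% mitochondrial UMIs. Doublets were scored with scrublet in scanpy 1.11.5 and left in. The BAM rule, gene lists and tests were chosen with earlier results of these data known.

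UMIs were summed per sample and class where a sample had at least 10 cells, which left Nu-NB, T16 and P13. Sums were tested with edgeR 4.0.16 (R 4.3.3, limma 3.58.1) by the quasi-likelihood test, with TMM scaling, filterByExpr, an adjusted p of at most 0.01 and an absolute log2 fold change of at least 1, over all genes. The sample was a block between BAMs and Mg, since both came from the same library. Residual degrees of freedom were 2 there and 1 between PDOXs and Nu-NB, where the lone brain is assumed to vary as the PDOXs do. DESeq2 1.42.0 was an alternative. Each tumor was represented by 1 library (P3 by 1 untreated and 1 treated). With so few residual degrees of freedom, edgeR drew each gene's spread mainly from all genes tested. Its p-values rest on that pooled spread and little on a gene's own spread between these libraries. They do not cover differences between mice with the same tumor. Exact tests and intervals used scipy 1.17.1 on Python 3.11.15.

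Named genes were the markers, members of the lists, and up to 10 genes per direction past the threshold with the largest fold change at 100 CPM or more. Where fewer than 5 passed, the 10 with the smallest p were given. Hpgd and Mmp9 fell outside this rule and were chosen after their values were seen. Depth was between 760 and 2916 kept cells per library, and 1 UMI in the summed BAMs weighed 29.5 to 68.7 CPM. Scripts were tested on simulated data. Results for 2 genes are not reported here.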

Additional observations from a re-analysis of the deposited data

Results flagged for a closer look

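Cells with at least 2 of the 6 BAM markers that the rule left out because they also held P2ry12, Tmem119, Cldn5 or Ly6c2 lie outside every comparison above. In P13 they were 43 cells, or 1.47% of kept cells (exact 95% binomial interval 1.07 to 1.98), against 0.214% in Nu-NB (4 cells, 0.0584 to 0.547). Their median depth in P13 was 8245 UMIs, against 997 in the BAMs of P13. After thinning to 500 UMIs the shares were 0.104% in P13 (3 cells), 0.341% in T16 (5 cells) and 0.0961% in Nu-NB (1 cell). No PDOX stood apart from the other 6 in the 3 shares examined for an outlying sample.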

How the results depend on the processing

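Between BAMs and Mg, the 57 calls higher and 40 lower became 50 and 7 with DESeq2, 31 and 33 with cells thinned to 500 UMIs, 21 and 17 with untreated PDOXs only, and 15 and 0 without the replicate block, in the fit that ignores the pairing by sample. They became 43 and 65 without a filter on low counts, 63 and 33 with RLE scaling, and 47 and 46 with 5 cells per sum. Leaving out a sample gave 21 higher and 17 lower (Nu-NB), 41 and 18 (T16) and 44 and 57 (P13). Of 278 values of the 20 genes with the largest changes, 239 kept direction and call, 39 no longer passed and 0 reversed. BAMs of PDOXs against Nu-NB gave 0 calls in every alternative run. For Mg the 36 calls higher and 40 lower became 115 and 68 with DESeq2, 110 and 73 without the 5% highest scrublet scores, 3 and 16 without a filter, 25 and 24 after thinning, and 0 with 5 cells per sum or with sparse samples pooled. The interaction, with no call, gave 2 lower calls with RLE (Cybb, Ifi202b), 1 without a filter, 4 with 5 cells per sum and 5 with sparse samples pooled. The causes were not tested. BAM shares among BAMs, Mg and monocytes were 3.23% (Nu-NB), 4.93% (T16), 2.55% (P13) and 1.47% (untreated PDOXs pooled). With at least 500 genes T16 was at 0.704%, without the exclusion genes P13 was at 2.26% and the pool at 0.979%, and with 3 or more markers the pool, 0.431%, was at 0.282%. Leaving out a PDOX moved the pool between 0.291% (without T16) and 0.533%. The cell-cycle difference reversed to -5.43 points without thinning and -1.65 at 300 UMIs, and ranged from -0.399 (without P13) to 2.19 when a sample was left out. The mean MHC class II difference ran from 1.67 to 6.10 points, but T16 turned negative in 4 settings. No paired analysis was possible for PDOXs against Nu-NB because the groups share only number 1, and P8 held no BAM. Leaving out a sample from the tumor comparisons leaves no residual degrees of freedom, and fits at 500 genes could not be made. Depth limits all of these: the BAM sums held 14547 to 33937 UMIs.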

Other observations

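Of the 24 BAMs of Nu-NB, 7 held exactly 2 markers, 4 held 3, 7 held 4, 5 held 5 and 1 held all 6. The median share of mitochondrial UMIs was 5.34% in BAMs of Nu-NB, 13.6% in T16 and 7.37% in P13.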
